A study of Mus musculus with 6 samples.

Results

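The 9 genes followed here belong to the basement membrane and to cell attachment and were measured in single nuclei of mouse intestinal organoids. They are the collagen IV chains Col4a1 and Col4a2, the laminin chains Lama3, Lama5 and Lamb3, fibronectin (Fn1), thrombospondin-1 (Thbs1) and the integrin subunits Itga2 and Itga6. These 9 of 31319 genes in the count matrices were selected on their measured levels by deposited cluster, several of them being high in cluster 7, as a named list. Their level by cluster is therefore given as a description without a test. The basement membrane is the thin sheet of matrix under every epithelium. Its scaffold is a network of collagen IV, in which Col4a1 and Col4a2 chains are wound together, and a network of laminins, each built from an alpha, a beta and a gamma chain. Lama5 is a major laminin alpha chain under adult intestinal epithelium, and Lama3 and Lamb3 are chains of laminin-332, which anchors epithelial cells and is laid down by migrating cells in wounds. Fn1 and Thbs1 are secreted glycoproteins of provisional and repair matrix, Itga2 pairs with Itgb1 as a collagen receptor, and Itga6 pairs with Itgb1 or Itgb4 as a laminin receptor.

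Organoids are epithelial cultures grown from intestinal crypts. Here they came from the jejunum of C57BL/6 mice aged 8 to 12 weeks. They were cultured in QCM, the conditioned medium of quiescent fibroblasts, or in SCM, that of senescent fibroblasts, and the question was how secretions of senescent cells change the epithelium. Per the study's methods the fibroblasts were mouse embryonic fibroblasts made quiescent by low serum or senescent by X-rays or doxorubicin, and the organoids grew in Matrigel, itself a basement membrane extract. Which inducer was used for these samples and how long they were exposed is not stated in the sources used here. There were 3 samples per medium, numbered 1 to 3. Nothing in the labels says that the samples came from separate animals, so p-values measure the spread between these samples, which may be technical.

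The start of Col4a1 and Col4a2 is shown because both chains are transcribed from one spot in opposite directions and their levels are read side by side below. Col4a1 lies at chr8:11198423-11312826 on the minus strand and Col4a2 at chr8:11312805-11449287 on the plus strand (GRCm38, GENCODE M21), so that the genes overlap by 22 bases at chr8:11312805-11312826. These 22 bases are printed from RefSeq (GRCm38.p6), 5′ to 3′ on the strand of each gene, with the GC box (GGGCGG or its reverse complement) in capitals.
Col4a2, plus strand: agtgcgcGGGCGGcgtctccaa
Col4a1, minus strand: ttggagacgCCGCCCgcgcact

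RefSeq windows from 250 bases before to 50 after the start were at hand for 5 of the 9 genes (6 windows). The bases before the start are shown for 3 genes that differ in how far their level is set apart in cluster 7: most for Lama5, less for Lamb3 and least for Itga2. The Lama5 stretch is chr2:180225860-180226109 on the minus strand, the Itga2 stretch chr13:114932101-114932350 on the minus strand, and the Lamb3 stretch chr1:193301744-193301992 on the plus strand, inside the annotated Lamb3 gene and before one of 2 starts. Capitals mark motif matches on either strand.
Lama5: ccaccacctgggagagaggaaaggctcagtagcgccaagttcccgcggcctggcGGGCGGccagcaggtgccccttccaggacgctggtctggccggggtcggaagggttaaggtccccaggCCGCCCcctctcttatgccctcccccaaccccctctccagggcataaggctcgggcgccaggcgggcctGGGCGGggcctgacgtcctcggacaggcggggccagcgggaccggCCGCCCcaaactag
Itga2: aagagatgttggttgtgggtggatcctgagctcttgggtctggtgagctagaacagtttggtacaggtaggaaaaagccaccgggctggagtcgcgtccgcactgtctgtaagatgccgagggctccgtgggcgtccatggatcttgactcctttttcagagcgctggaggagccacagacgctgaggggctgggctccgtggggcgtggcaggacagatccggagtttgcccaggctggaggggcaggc
Lamb3: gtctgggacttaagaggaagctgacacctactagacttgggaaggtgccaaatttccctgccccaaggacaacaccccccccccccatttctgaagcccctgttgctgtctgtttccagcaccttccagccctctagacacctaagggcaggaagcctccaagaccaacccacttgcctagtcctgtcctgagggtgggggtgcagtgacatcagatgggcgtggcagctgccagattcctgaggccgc
The motifs searched on both strands may overlap each other. The GC box is GGGCGG. The CCAAT box is spelled as its name. The core of TEAD sites is GGAATG. AP-1 sites are written TGANTCA. The GC box was found 4 times before the start of Lama5 and not in the Itga2 or Lamb3 stretch printed. Of the whole windows of 300 bases, 4 of the 6 hold it (Lama5, Col4a1, Col4a2 and Itga2), against 35.7% of all 32851 windows of that length in the table. The single matches of Col4a1 and Itga2 lie after the start, and that of Col4a1 is the box in the shared 22 bases, counted for Col4a2 as well. GGAATG was found once, in the window of the second Lamb3 start, against 14.7% of all windows. TGANTCA was in none of the 6 windows, against 7.81% of all. CCAAT was found in the Col4a1 and the Col4a2 window, once each, against 37.4% of all.

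The other members with coordinates were Fn1 at chr1:71585520-71653200 (minus), Lamb3 at chr1:193207699-193343878 (plus), Itga6 at chr2:71745616-71858416 (plus), Thbs1 at chr2:118111876-118127133 (plus), Lama5 at chr2:180176373-180225859 (minus) and Itga2 at chr13:114833081-114932100 (minus). Itga2 overlapped no other annotated gene. The other 7 overlapped between 1 and 6 genes, among them each other for the collagen pair and Hsd11b1 and G0s2 on the opposite strand for Lamb3. On the same strand lay Gm44716 for Col4a1, Mir7005 for Lama5, 4930570N18Rik and Gm37691 for Lamb3, and Gm13663 and Gm13662 for Itga6. Reads shared with these may not be told apart. Where the counting did not separate strands, the same holds for genes on the opposite strand.

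The matrices held 38154 nuclei. Samples held between 19925280 and 41035733 UMIs (unique molecular identifiers, 1 per captured RNA molecule), except SCM replicate 1 with 4071926 UMIs from 430 nuclei, and levels are given as CPM, the count scaled to 1000000 UMIs of the nuclei summed. Of the 430 barcodes of SCM replicate 1, 175 (40.7%) also occurred in QCM replicate 1, and 9 of its 17 cluster 7 nuclei were among them. SCM replicate 2 stood apart in cluster 7: 52 of its 204 nuclei there held over 20000 UMIs each and 75.8% of its cluster 7 UMIs, against 9.82% to 42.3% in the other samples. Ribosomal protein genes took 4.96% to 14.2% of the UMIs in QCM and 2.64% to 7.30% in SCM, lowest in SCM replicate 2. Because the highest levels below came from that sample, the log2 ratios of the members are also given without it.

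Cluster 7 held 9 of 13 fetal-like epithelial markers at least 2-fold above the other nuclei. It made up 3.82%, 2.72% and 3.31% of the nuclei in QCM replicates 1 to 3, and 3.95%, 4.06% and 4.84% in the SCM replicates. Its share of the UMIs was 2.84% to 3.82% in QCM and 3.77%, 16.4% and 7.93% in SCM. Col4a1, Fn1 and Thbs1 are also products of fibroblasts, so fibroblast markers were read in the same nuclei. Of 11 fibroblast and mesenchyme markers, 5 had 0 UMIs in cluster 7 in all 6 samples: Col1a1, Col1a2, Col3a1, Dcn and Lum. These 5 were rare over all nuclei too, with 3 to 26 UMIs each in QCM and 1 to 7 in SCM. Their absence therefore does not set cluster 7 apart. The summed level of the list was 43.7 to 68.1 CPM over all nuclei of QCM and 35.1 to 44.2 of SCM, and in cluster 7 it was 29.0 to 48.5 CPM in QCM and 19.5 to 38.6 in SCM. Pdgfra, Pdgfrb and Vim had means of 0.438, 2.01 and 1.34 CPM in cluster 7 of QCM and 0.0980, 0.765 and 0.667 of SCM. Most of the summed level in cluster 7 thus came from the remaining markers of the list, which did have UMIs there. The summed level of the fetal-like markers, which include Ccn1 and Ccn2, was 125 to 211 CPM over all nuclei of QCM and 284 to 824 of SCM, without overlap. Of single genes, 4.99% were higher in SCM without overlap over all nuclei. In cluster 7 the fetal-like sums overlapped, at 821 to 1217 CPM in QCM and 1074 to 3281 in SCM. In cluster 7 the groups did not overlap for 7 enteroendocrine markers (68.1 to 122 CPM in QCM and 13.0 to 47.5 in SCM) and 6 Paneth markers (418 to 2307 and 260 to 303). Of single genes, 6.16% were lower in SCM without overlap in cluster 7. Over all nuclei the groups overlapped for the enteroendocrine (123.2 to 191.5 and 38.6 to 123.3 CPM) and the Paneth markers (518 to 2633 and 335 to 582). The 7 enterocyte markers had 663 to 3280 CPM in cluster 7 of QCM and 189 to 775 of SCM. The part of these cell types in the results was not tested. The epithelial marker Epcam had a mean of 959 CPM in cluster 7 of QCM and 894 of SCM.

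Across the 15 clusters, 7 of the 9 genes had their highest mean level in cluster 7: both collagen chains, the 3 laminin chains, Fn1 and Thbs1. The integrin subunits did not, with Itga2 highest in cluster 6 and Itga6 in cluster 14. With UMIs summed over samples instead, Itga2 was highest in cluster 7, at 223 CPM against 216 in cluster 6. Clusters 0 to 8 had all 6 samples with at least 10 nuclei, clusters 9 to 12 had 5, cluster 13 had 4 and cluster 14 had 3. For every gene, neighbours in the order of clusters differed by less than the larger SD of the pair over QCM and SCM samples together, other than clusters 0 and 13, the last 2 for Lama5.

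**Figure D1:**
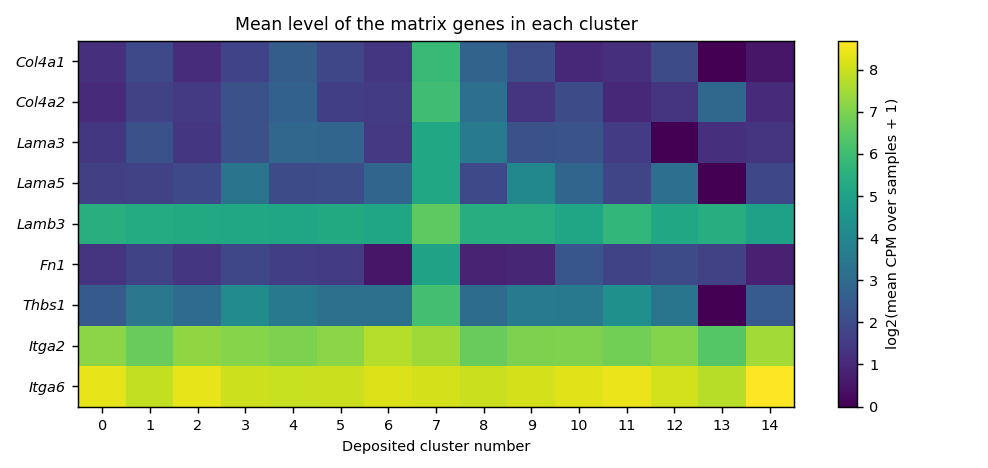
Mean level of each gene (rows) in each deposited cluster (columns), as log2 of the mean CPM over samples plus 1. The column of cluster 7 stands out for the collagen, laminin, Fn1 and Thbs1 rows, while the Itga2 and Itga6 rows are high in every cluster.

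Both collagen IV chains were concentrated in cluster 7. Col4a1 had a mean of 56.9 ± 51.3 CPM there (SD, n = 6) and the next cluster, 8, had 5.75. Of all its 1011 UMIs, 73.2% were in cluster 7, and 56.9% of the 350 UMIs without SCM replicate 2. Col4a2 had a mean of 64.1 CPM in cluster 7 and 8.06 in cluster 8, with 75.5% of 1094 UMIs in cluster 7, or 54.6% of 346 without that sample. The mean levels in cluster 7 without it were 36.4 CPM for Col4a1 and 39.5 for Col4a2. These and the other shares without SCM replicate 2 were computed after seeing the data. In each of the 6 samples both chains were higher in cluster 7 than in the other nuclei, by 5.46 to 98.3-fold for Col4a1 and 12.8 to 59.0-fold for Col4a2. By the mean log2 difference (with 1 CPM added) between cluster 7 and the other nuclei, Col4a2 had rank 3 and Col4a1 rank 4 of 17352 genes. The other members had ranks 52 (Lama5), 63 (Lama3), 89 (Thbs1), 309 (Fn1), 392 (Lamb3), 2997 (Itga2) and 6424 (Itga6). Since the members were selected on levels by cluster, these ranks are a description only. The collagen pair was found in the same nuclei to different extents: of the cluster 7 nuclei with a Col4a1 UMI, 59 of 71 in SCM replicate 2 also held Col4a2, while in QCM replicate 1 it was 3 of 13. Nuclei with both were deep, with a median of 24051 UMIs in SCM replicate 2, where the median of the cluster was 4912.

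Among the laminins, Lama3 had a mean of 36.2 CPM in cluster 7 and 10.6 in cluster 8, and 59.5% of its 899 UMIs were in cluster 7. The Lama3 mean without SCM replicate 2 was 20.3 CPM and the share 35.0% of 403 UMIs, and over the 6 samples the share ranged from 6.06% to 79.4% with a median of 26.6%. Lama5 had 36.1 CPM in cluster 7 and 15.5 in cluster 9, with 49.2% of 845 UMIs in cluster 7, or 35.2% of 503 without SCM replicate 2. Lamb3 was found widely, with 91.3 CPM in cluster 7 and between 30.7 and 53.2 CPM in the other 14 clusters, so that cluster 7 held 17.7% of its 5559 UMIs, or 9.96% of 4217 without SCM replicate 2. All 3 chains were higher in cluster 7 than in the other nuclei in 6 of 6 samples, with median ratios of 11.1, 9.70 and 2.16.

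Thbs1 had a mean of 67.1 CPM in cluster 7, followed by 19.6 in cluster 11, and 50.9% of its 1963 UMIs were in cluster 7. The Thbs1 mean without that sample was 37.2 CPM and the share 32.2% of 813 UMIs. Fn1 had a mean of 31.4 ± 63.9 CPM in cluster 7 (SD, n = 6), an SD larger than the mean, and 545 of its 788 UMIs came from cluster 7 of SCM replicate 2. Without that sample its mean there was 5.70 CPM, and 57 of 112 UMIs (50.9%) were in cluster 7, 55 of them in SCM replicate 3. It was higher in cluster 7 than outside it in 3 of 6 samples only. Fn1 was at 0 UMIs in cluster 7 of QCM replicates 1 and 2 and of SCM replicate 1, which allows up to 2.08, 4.35 and 19.5 CPM (3 UMIs each).

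The integrin subunits were spread over all clusters. Itga2 ranged from 84.0 CPM in cluster 13 to 212 ± 44.9 in cluster 6 (SD, n = 6) and had 172 in cluster 7. Itga6 ranged from 216 CPM in cluster 13 to 412 in cluster 14 and had 279 in cluster 7. In 5 of 6 samples each was higher in cluster 7 than outside, with median ratios of 1.23 and 1.04, and SCM replicate 1 was the exception for both. Cluster 7 held 10.2% of the Itga2 and 7.28% of the Itga6 UMIs, or 5.41% and 4.71% without SCM replicate 2.

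The share of nuclei with a UMI depended on depth. In SCM replicate 2, Thbs1 was found in 40.2% of cluster 7 nuclei and 6.91% of the others, whose median depths were 4912 and 2521 UMIs. With each nucleus thinned to 1000 UMIs the shares were 12.0% and 2.76%. In QCM replicate 2, with median depths of 2186 and 2303, the shares were 6.48% and 0.765%. No cell type that is known to lack these genes was at hand to set a background for free RNA. With thinning, none of the 9 genes had a higher share in cluster 7 in all 6 samples, where 5 of 9 did without it. The thinned share in cluster 7 of SCM replicate 1, from 14 nuclei, was 0 for 6 of the genes.

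Summed over all nuclei, SCM samples had higher mean levels of all 9 genes than QCM samples, by over 3-fold for both collagen chains, Lama3, Lama5, Thbs1 and Fn1, and by 1.25 to 1.42-fold for Lamb3, Itga2 and Itga6. The ratios of means without SCM replicate 2 were 1.64 for both collagen chains, 2.83 for Lama3, 2.58 for Lama5, 3.06 for Thbs1 and 4.60 for Fn1, and 1.12 to 1.22 for the other genes. The fitted estimate was above 0 for 9 of 9, against 48.6% of all genes. Several members were selected as high in cluster 7. That cluster held 3.77%, 16.4% and 7.93% of the UMIs in SCM and 2.84% to 3.82% in QCM. Counts of members over all nuclei, here and below, are therefore descriptions. None passed the test. The edgeR quasi-likelihood test called 0 of the 9 members and 0 of all 19046 genes tested (0%), with adjusted p between 0.927 and 0.931. At an unadjusted p under 0.05 it gave 6 of the 9, all higher in SCM, where 4.55% of all genes had such a p and 1.46% were higher in SCM with it. DESeq2 called 1 of the 9, Thbs1 (adjusted p = 0.0111), and 21 of all genes (0.11%). The median log2 ratio of SCM to QCM was 2.17 over the members and -0.01 over all genes tested. Without SCM replicate 2 the median was 0.56 over the members and -0.03 over all genes tested, and 8 of the 9 estimates were above 0. In that fit 3 of the 9 had an unadjusted p under 0.05 (Thbs1, Lama3 and Lama5), as did 163 of all 20061 genes tested. Fn1 would not have passed the low-count filter without its SCM counts, and of the other 8 members 5 had an unadjusted p under 0.05. In sums over all nuclei, a change in the number of nuclei of a type and a change in RNA per nucleus cannot be told apart.

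Thbs1 had 4.12, 3.38 and 5.72 CPM in QCM replicates 1 to 3 and 12.0, 55.3 and 14.9 CPM in the SCM replicates. Every SCM sample lay above every QCM sample. The mean was 4.41 ± 1.20 CPM in QCM and 27.4 ± 24.2 in SCM (SD, n = 3 each), and edgeR estimated a log2 ratio of 2.47 ± 0.59 (SE; adjusted p = 0.927). Without SCM replicate 2 the log2 ratio was 1.47, and without the barcodes SCM replicate 1 shares with QCM replicate 1 it was 2.39.

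Lama3 had 2.34, 1.48 and 3.71 CPM in QCM and 8.10, 23.9 and 6.12 in SCM. Lama5 had 1.22, 2.84 and 5.27 CPM in QCM and 6.63, 16.5 and 9.40 in SCM. In these sums the groups did not overlap for either alpha chain, but they overlapped for both with each nucleus weighted equally. Their log2 ratios of 2.17 ± 0.58 and 1.71 ± 0.53 (SE; edgeR, adjusted p = 0.927 for both) became 1.32 and 1.30 without SCM replicate 2. The beta chain Lamb3 had 32.8, 38.4 and 38.9 CPM in QCM and 45.4, 64.6 and 36.5 in SCM, and the groups overlapped. Its log2 ratio of 0.25 ± 0.22 (SE) was near 0, at -0.00, without SCM replicate 2 and -0.10 without the 6% deepest nuclei.

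Col4a1 had 2.44, 1.28 and 4.17 CPM in QCM and 4.17, 31.8 and 4.44 in SCM. The groups did not overlap in these sums, but the highest QCM sample, at 4.166 CPM, and the lowest SCM sample, at 4.175, were nearly equal. Col4a2 had 2.63, 1.24 and 4.32 CPM in QCM and 5.16, 36.0 and 3.77 in SCM, and the groups overlapped. The edgeR log2 ratios were 2.20 ± 0.84 and 2.29 ± 0.89 (SE). Both rested on SCM replicate 2, without which they were 0.56 and 0.52.

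Fn1 was low in QCM, with 5, 0 and 20 UMIs in replicates 1 to 3, or 0.122, 0 and 1.00 CPM. The 0 of QCM replicate 2 allows up to 0.124 CPM, the level of 3 UMIs. The SCM replicates held 1, 676 and 86 UMIs, or 0.246, 32.5 and 3.21 CPM. SCM replicates 2 and 3 lay above all QCM samples and replicate 1 between them. The edgeR log2 ratio was 4.99 ± 1.62 (SE), and 2.32 without SCM replicate 2. It rests on low QCM counts and ranged from 2.32 to 7.03 when single samples were left out.

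Itga2 had 83.9, 166 and 107 CPM in QCM and 140, 214 and 151 in SCM. Itga6 had 183, 364 and 219 CPM in QCM and 320, 374 and 261 in SCM. The groups overlapped for both, and replicate 2 was the highest of its medium for both. The log2 ratios were 0.37 ± 0.25 and 0.18 ± 0.24 (SE). When the fit held the ribosomal protein share of each sample they were 0.03 and -0.19.

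Without overlap between the groups, 4 of the 9 were higher in SCM (Thbs1, Lama3, Lama5 and Col4a1), where 4.99% of all genes tested were. These levels weight each nucleus by its UMIs, and the share over all genes was computed with that weighting alone. With each nucleus weighted equally, chosen after seeing the data, 1 of the 9 was without overlap, Thbs1, at 4.20, 3.85 and 6.13 CPM in QCM and 7.34, 36.6 and 11.4 in SCM. Lama3 in SCM replicate 3 (4.07 CPM) then lay below QCM replicate 3 (4.19), Lama5 in SCM replicate 1 (2.37) below QCM replicates 2 and 3 (2.38 and 4.04), and Col4a1 in SCM replicates 1 and 3 (2.18 and 3.31) below QCM replicate 3 (3.51). Leaving out the deepest 6% of nuclei in each sample gave log2 ratios of 1.68 for Thbs1, 1.10 for Lama3, 1.10 for Col4a1, 0.93 for Lama5, 0.72 for Col4a2 and 3.75 for Fn1.

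**Figure D2:**
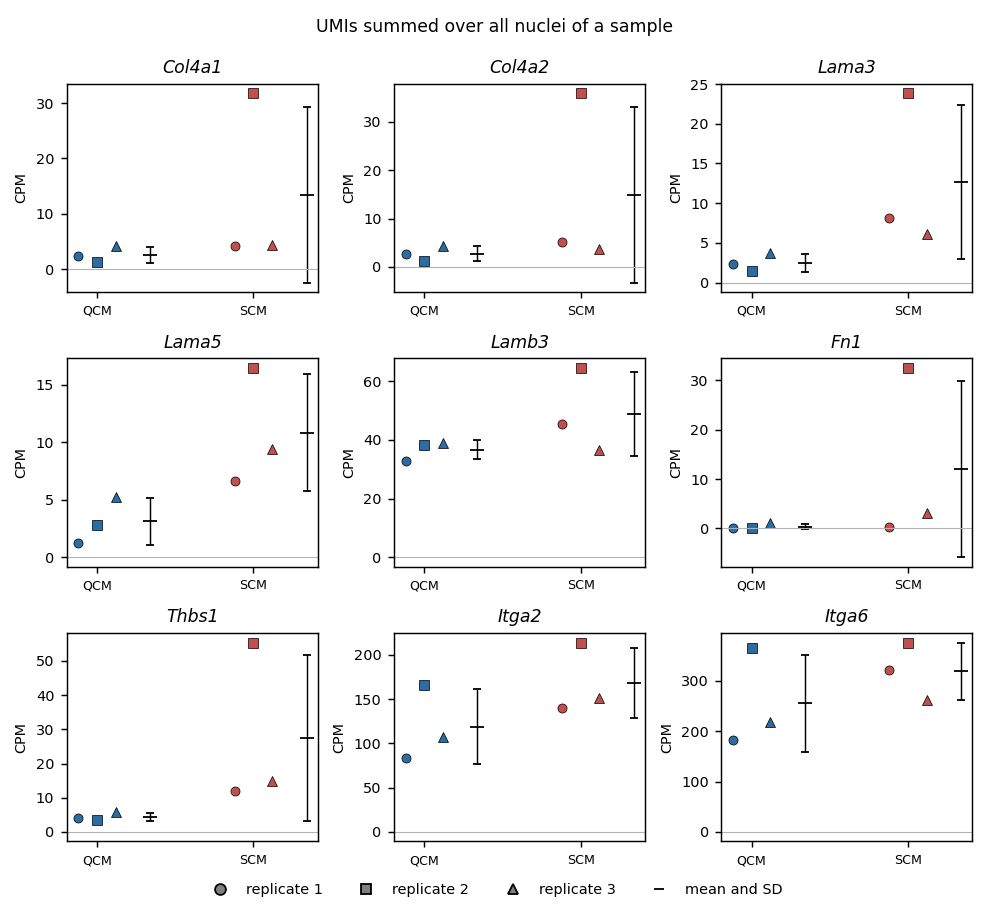
CPM of each gene with all nuclei of a sample summed, for 3 QCM samples (blue) and 3 SCM samples (red), with marker shapes for replicate numbers and the mean with SD in black, on linear axes from 0. The square of SCM replicate 2 is the highest point in every panel, and in the Thbs1, Lama3 and Lama5 panels all red points lie above the blue ones.

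Within cluster 7 alone, Thbs1, Lama3 and Lama5 had the largest estimates and the integrins the smallest among the 8 members fitted, which leave out Fn1. With the low-count filter no gene passed the edgeR test. The edgeR test called 0 of the 8 members it could fit and 0 of 10515 genes (0%), with members' adjusted p from 0.339 to 0.961. At an unadjusted p under 0.05 were 3 of the 8, all higher in SCM (Thbs1, Lama3 and Lama5), against 11.9% of all genes and 3.4% higher in SCM. Lama5 would not have passed the filter without its SCM counts, and of the other 7 members 2 had such a p. Without the low-count filter edgeR called Thbs1, Lama3, Lama5, Col4a2 and Fn1 in cluster 7, and 1.71% of 25688 genes. The genes that fit adds are those with few counts. Of the 602 Fn1 UMIs in cluster 7, 545 came from SCM replicate 2. In the filtered fit without that sample Col4a2 had a log2 ratio of -0.31. In none of the 8 did all SCM samples lie above all QCM samples, as they did for 10.2% of all genes. With each nucleus weighted equally they did for Lama5 and Lamb3, a weighting for which no share over all genes was computed. DESeq2 called 35 genes (0.333%) and no member, and gave no adjusted p for Col4a1, Col4a2, Thbs1, Lama3 and Lama5. Single nuclei weighed heavily in QCM replicate 1, where 1 nucleus held 23 of the 27 Lama3 UMIs and 1 held 36 of the 56 Col4a1 UMIs. SCM replicate 1 entered with 17 nuclei, and its values rest on 0 to 30 UMIs per gene.

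In cluster 7, Thbs1 had 10.4, 26.1 and 36.8 CPM in QCM and 19.5, 217 and 93.2 in SCM. Lama3 had 18.7, 13.0 and 13.2 CPM in QCM and 13.0, 116 and 43.8 in SCM. Lama5 had 8.32, 24.6 and 30.3 CPM in QCM and 26.0, 70.2 and 57.0 in SCM. For all 3 genes SCM replicates 2 and 3 lay above every QCM sample and replicate 1 did not. The log2 ratios were 2.31 ± 0.58, 1.99 ± 0.51 and 1.42 ± 0.41 (SE; edgeR, adjusted p = 0.339 for each), and became 1.45, 1.04 and 1.14 without SCM replicate 2. Without SCM replicate 1, which is also the fit without its shared barcodes since under 10 nuclei then remain, they were 2.62, 2.21 and 1.56.

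Col4a1 and Col4a2 had another pattern in cluster 7. Col4a1 had 38.8, 33.3 and 55.2 CPM in QCM and 19.5, 159 and 35.3 in SCM, and Col4a2 had 36.0, 27.5 and 56.6 in QCM and 45.6, 187 and 32.0 in SCM. Apart from SCM replicate 2, the SCM values lay within or below the QCM range. The log2 ratios of 0.84 ± 0.55 and 1.15 ± 0.58 (SE) became -0.57 and -0.31 without SCM replicate 2.

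Lamb3 had 55.4, 76.8 and 84.2 CPM in QCM and 65.1, 166 and 100.3 in SCM, a log2 ratio of 0.61 ± 0.30 (SE) that was 0.18 without SCM replicate 2. Itga2 had 0.51 ± 0.39 and Itga6 0.08 ± 0.29 (SE), which became -0.05 and -0.17 without that sample. With the share of ribosomal protein UMIs in the fit, the estimates in cluster 7 were lower for all 8: 1.50 for Lama3, 1.07 for Thbs1, 0.69 for Lama5, 0.28 for Col4a2, 0.19 for Lamb3, 0.05 for Col4a1, -0.33 for Itga2 and -0.42 for Itga6.

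Fn1 in cluster 7 was below the count filter of the fit. It had 0, 0 and 2 UMIs in QCM and 0, 545 and 55 in SCM. With UMIs added over samples, SCM held 600 among 5681011 cluster 7 UMIs and QCM 2 among 2893395, a ratio of 153 (exact 95% interval 42.1 to 1265). Without SCM replicate 2 it was 55 among 2278050 against the same 2, a ratio of 34.9 (9.22 to 296). The intervals cover counting error only and not the spread between samples, in which 1 SCM sample was at 0. Of the 545 UMIs of SCM replicate 2, 511 (93.8%) were in 8 nuclei, which held 14 to 239 Fn1 UMIs each, and 6 of the 8 had over 20000 UMIs in all. In these 8 nuclei Col4a1, Col4a2, Lama3, Epcam and Krt8 were found in 8 and Thbs1 in 7, while Col1a1, Col1a2, Col3a1, Pdgfra, Pdgfrb, Dcn and Lum had 0 UMIs and Vim had 2, in 2 of the 8. Col1a1, Col1a2, Col3a1, Dcn and Lum were rare over all nuclei as well. The remaining fibroblast and mesenchyme markers of the list were not read in these 8 nuclei. The 2 nuclei with the most Fn1 had 239 and 65 Fn1 UMIs, 31 and 45 Col4a1 UMIs and 87 and 70 Thbs1 UMIs.

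**Figure D3:**
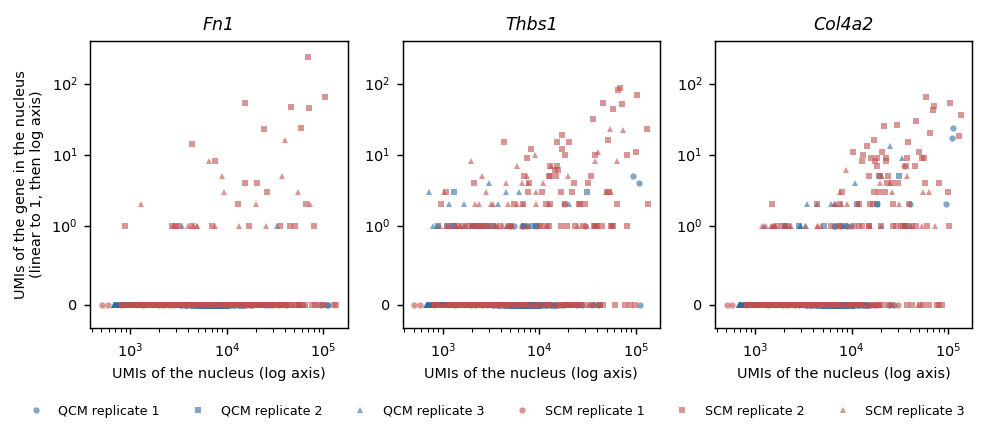
UMIs of Fn1, Thbs1 and Col4a2 in each cluster 7 nucleus (vertical, linear to 1 and then a log axis) against all UMIs of the nucleus (horizontal, log axis), coloured by medium and shaped by replicate. Most nuclei lie at 0, and of the 9 nuclei with over 10 Fn1 UMIs 8 are squares of SCM replicate 2, as are 16 of the 19 with over 10 Thbs1 UMIs.

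**Figure D4:**
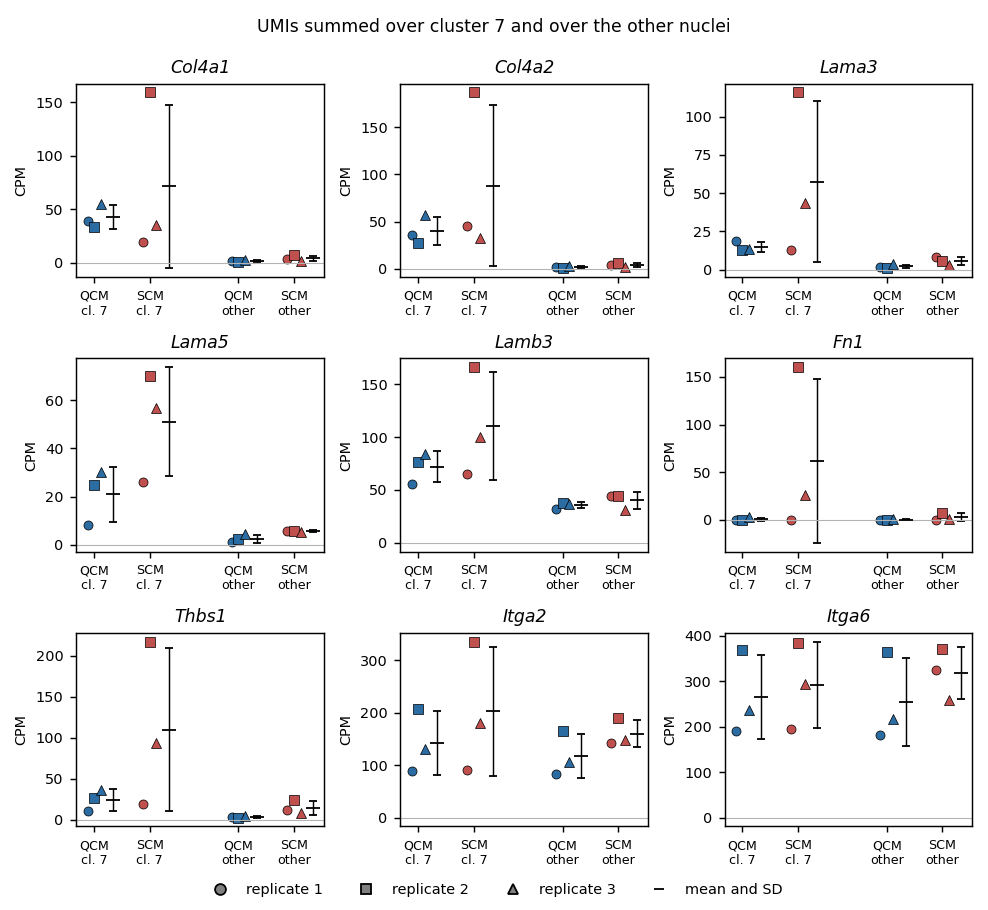
CPM of each gene in cluster 7 and in all other nuclei of the same samples, QCM in blue and SCM in red, shapes for replicate numbers and mean with SD in black, on linear axes. In cluster 7 SCM replicate 2 is the highest point of every panel, and for the collagen chains the other red points lie within or below the range of the blue ones.

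Outside cluster 7 all 9 genes had positive estimates, against 49% of all genes, and the mean levels of the collagen and laminin chains, Fn1 and Thbs1 were lower than in cluster 7, for Fn1 in 3 of 6 samples only. With SCM replicate 2 left out, 8 of the 9 estimates were above 0, and the median over all genes tested was -0.03. Fn1, Col4a1 and Col4a2 would not have passed the filter there without their SCM counts, so the count of 9 is a description. The edgeR test called 0 of the 9 members and 0 of 18739 genes (0%). At an unadjusted p under 0.05 were 2 of the 9, Thbs1 and Lama3, both higher in SCM, against 3.68% of all genes and 0.8% higher in SCM, and DESeq2 called 3 genes (0.016%) and no member. Thbs1 had 3.89, 2.71 and 4.49 CPM in QCM and 11.7, 23.8 and 8.15 in SCM, without overlap. Here edgeR estimated 1.79 ± 0.44 (SE; adjusted p = 0.932), or 1.23 without SCM replicate 2. Lama5 had 0.960, 2.20 and 4.28 CPM in QCM and 5.87, 5.92 and 5.31 in SCM, also without overlap, with a log2 ratio of 1.09 ± 0.48 (SE). With each nucleus weighted equally the Lama5 groups overlapped, at 0.809, 2.25 and 3.80 CPM in QCM and 1.84, 5.51 and 4.84 in SCM. In the summed counts non-overlap was found for 2 of the 9, where 4.19% of all genes were higher in SCM in that way. With equal weights it was found for Thbs1 alone, and no share over all genes was computed for that weighting.

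Lama3 had a log2 ratio of 1.21 ± 0.52 outside cluster 7, Col4a1 of 1.59 ± 0.73 and Col4a2 of 1.25 ± 0.72 (SE). Without SCM replicate 2 these were 1.14, 0.92 and 0.55, and Lama5 had 1.07. Fn1 had 5, 0 and 18 UMIs in QCM and 1, 131 and 31 in SCM, and its 131 UMIs in SCM replicate 2 were spread over 130 nuclei. Lamb3, at 32.0 to 37.3 CPM in QCM and 31.0 to 44.7 in SCM, had a log2 ratio of 0.01 ± 0.18 (SE). Itga2 and Itga6 had 0.31 ± 0.23 and 0.19 ± 0.24 (SE).

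**Figure D5:**
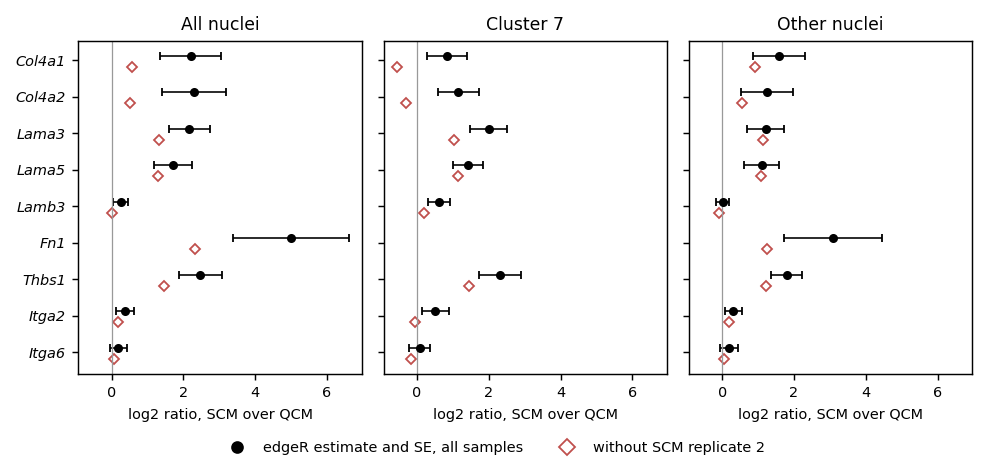
edgeR log2 ratio of SCM to QCM with its SE (black) and the same estimate without SCM replicate 2 (open diamonds) for each gene over all nuclei, in cluster 7 and in the other nuclei. The diamonds lie to the left of the black points in every row, and in cluster 7, where Fn1 has no estimate, they lie below 0 for both collagen chains, Itga2 and Itga6, as they do for Lamb3 over all nuclei and outside cluster 7.

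Whether SCM and QCM differed more in cluster 7 than in the other nuclei was tested as an interaction, with each sample as a block. The edgeR test called 0 of the 9 members and 0 of 14848 genes (0%), and DESeq2 called 0. At an unadjusted p under 0.05 were 3 of the 9, against 5.56% of all genes: Fn1 with 3.33 ± 0.85 (SE, log2; adjusted p = 0.583), Lamb3 with 0.71 ± 0.24 (adjusted p = 0.751), and Col4a1 with -0.84 ± 0.39 (adjusted p = 0.881). Fn1 would not have passed the filter without its SCM counts, so its value is a description, and 2 of the other 8 had such a p. With all samples the other estimates lay between -0.13 for Col4a2 and 0.91 for Lama3. Without SCM replicate 2, Fn1 was below the low-count filter, Lamb3 had 0.50 and Col4a1 -1.34. In that fit 1 of the 8 members had an unadjusted p under 0.05, with an estimate below 0. The share over all genes is not given for that fit, so nothing is read from this count. No member was called for the interaction under any alternative run, while the count over all genes was 128 without SCM replicate 3, 31 without the low-count filter, 10 without SCM replicate 1 and 0 to 10 under the others.

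Fits in the other clusters reached few of the genes, since counts were low. In 13 clusters with enough samples the edgeR test called no gene, and DESeq2 called 39 in all, 35 of them in cluster 7. Itga2 was tested in 13 clusters and was higher in SCM in 13, with log2 ratios of 0.06 to 1.13. With the ribosomal protein share in the fit, Itga2 had 0.03 over all nuclei and -0.33 in cluster 7. Itga6 was higher in 11 of 13 (-0.39 to 0.44) and Lamb3 in 6 of 12 (-0.50 to 0.61). The clusters come from the same samples, so these counts of clusters are not independent. They are given without a share over all genes. Thbs1 was tested in 4 clusters, with 1.43 to 2.31, and Lama5 in 3, with 0.63 to 1.42. Thbs1 in clusters 2 and 3 and Lama5 in clusters 0, 7 and 9 would not have passed the filter without SCM samples, so these estimates are descriptions. Collagen IV and Lama3 were tested in cluster 7 alone and Fn1 in none. At an unadjusted p under 0.05 outside cluster 7 were Thbs1 in cluster 1, where 6.62% of all genes had such a p, and in cluster 2 (4.09%), where it passed the filter through SCM, and Itga2 in cluster 12 (4.72%).

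Further chains that pair with the members were read in the same fits, and none was called. Itgb4, the partner of Itga6 in hemidesmosomes, had 46.2 to 57.2 CPM in QCM and 58.5 to 120.9 in SCM over all nuclei, without overlap, with a log2 ratio of 0.54 ± 0.27 (SE) that was 0.15 without SCM replicate 2. Lamc1, the gamma chain that joins Lama5, had 0.22 ± 0.19 over all nuclei and 0.73 ± 0.26 in cluster 7, where its 71.6 to 107.8 CPM in SCM lay above 35.3 to 68.1 in QCM, and 0.07 and 0.54 without SCM replicate 2. Lamb1 had -0.07 ± 0.41, Itgb1 0.13 ± 0.19, Itga3 0.19 ± 0.20 and the hemidesmosome collagen Col17a1 -0.54 ± 0.44 (SE) over all nuclei. With SCM replicate 2 left out these were -0.21, -0.02, 0.03 and -0.96. In cluster 7 Itgb4 had 0.75, Itgb1 0.52 and Itga3 0.55, and 0.23, 0.17 and 0.08 without SCM replicate 2. Itgb1 had 195 to 226 CPM there in QCM and 246 to 453 in SCM, without overlap, as 10.2% of all genes were higher in SCM in cluster 7. Itgb4 was also higher in cluster 7 than in the other nuclei in 6 of 6 samples, by a mean of 1.49 on the log2 scale, while the mean was -0.07 for Col17a1 and -0.04 for Lamb1.

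Other genes of matrix and attachment were counted in 6 lists, of which edgeR called no gene over all nuclei and DESeq2 called 1, Thbs1. Beside the counts of unadjusted p below stand the 4.55% of all genes with such a p, and the 1.46% that were also higher in SCM. Of 33 basement membrane genes 27 were tested, with a median log2 ratio of 0.20, and 0.12 over the 22 that are not members, beside -0.01 over all genes. At an unadjusted p under 0.05 were 8, all higher in SCM: the 4 members Col4a1, Col4a2, Lama3 and Lama5, and among the others Col4a5, Col18a1 and Npnt. Npnt, nephronectin, an integrin ligand of basement membranes, had 8.65 ± 2.99 CPM in QCM and 23.3 ± 13.95 in SCM (SD, n = 3 each). Its log2 ratio was 1.31 ± 0.41 (SE), and 0.71 without SCM replicate 2.

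Of 20 genes of provisional and fibrillar matrix 9 were tested, with a median of 0.52, and 4 had an unadjusted p under 0.05, all higher in SCM: Thbs1, Fn1, Ccn1 and Ccn2. Ccn2, a matricellular protein, had 0.0824 to 0.402 CPM in QCM and 0.982, 5.87 and 0.634 in SCM, from 4, 2 and 8 UMIs in QCM and 4, 122 and 17 in SCM. Fn1 and Ccn2 would not have passed the filter without their SCM counts, so the count of 4 and the median are descriptions. Of 21 integrin genes 17 were tested, with a median of 0.19 and 3 at an unadjusted p under 0.05: Itgb8, Itgb6 and Itga1. Itgb8, which activates latent TGF-beta, had 0.906 to 1.68 CPM in QCM and 2.61 to 8.10 in SCM, with a log2 ratio of 1.74 ± 0.51 (SE) that was 1.69 without SCM replicate 2. Itgb6 had 0.68 ± 0.21 and Itga1 0.62 ± 0.21 (SE), and 0.44 and 0.51 without that sample. The list medians without it were 0.10 for basement membrane, 0.64 for provisional and fibrillar matrix, 0.14 for integrins, -0.16 for other matrix receptors, 0.12 for adhesion plaque and 0.05 for matrix turnover genes. In that fit 30 basement membrane, 11 provisional and fibrillar matrix and 18 integrin genes were tested, against 27, 9 and 17 with all samples. The medians of these lists are therefore not over the same genes.

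Of 12 other matrix receptors and hemidesmosome genes 11 were tested, with a median of -0.02. The hyaluronan receptor Cd44 was the one with an unadjusted p under 0.05, at 70.9, 74.6 and 74.7 CPM in QCM and 142, 217 and 118 in SCM, and a log2 ratio of 0.94 ± 0.24 (SE; edgeR adjusted p = 0.927). Rpsa and Cd151 were next, with -1.22 ± 0.55 and -0.72 ± 0.35 (SE). Rpsa also encodes a ribosomal protein, and had 2763, 1039 and 1401 CPM in QCM and 825, 488 and 1286 in SCM. The ribosomal protein share of these samples was 14.2%, 4.96% and 10.4% in QCM and 4.22%, 2.64% and 7.30% in SCM. A link between the 2 was not tested. Of 19 adhesion plaque genes 18 were tested, with a median of 0.18 and Tns3, Flna and Tns4 at an unadjusted p under 0.05, at 0.56, 0.95 and 0.90, which were 0.51, 0.43 and 0.36 without SCM replicate 2. Of 29 matrix turnover genes 19 were tested, with a median of 0.14. Mmp15, a membrane-bound metalloprotease, had 0.80 ± 0.24 (SE) and was the one at an unadjusted p under 0.05, followed by P4ha2 at -0.51 and Timp2 at 0.79, which were -0.66 and 0.37 without SCM replicate 2.

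The genes whose pattern over the 15 clusters was most like that of each member were found by Pearson's r of log2(mean CPM + 1) among 17352 genes. The points share libraries and cluster depths, and no p is given. For Itga2 it was Itga1, another collagen-binding integrin subunit, at 0.953. For Fn1 it was Clu at 0.923, followed by Ctnnb1 and Serpinb5, and for Col4a1 Gcnt1 (0.949), Dscaml1 and Creb5. Col4a2 was most like Serpinb9b (0.940), Rdh10 and Akr1b8, Thbs1 like Nek8 (0.935), Tnfrsf11b and Elk3, and Lama3 like Dse (0.922), Wincr1 and Lif. Lama5 was most like Nt5e (0.940), Gm13986 and Ppl, while Lamb3 was among others like Sprr2f (0.878) and Epn3, and Itga6 was most like Gm12655 (0.924), Smad3 and Dicer1. Between members, r was 0.784 for Col4a1 with Col4a2, 0.809 for Col4a1 with Lama3, 0.829 for Thbs1 with Lama5 and 0.578 for Itga2 with Itga6. Some pairs not named so far were as close, such as Col4a2 with Lama3 at 0.807 and Col4a1 with Thbs1 at 0.773. Others were lower, such as 0.465 for Lama3 with Lama5 and 0.376 for Col4a2 with Thbs1. Over all pairs of members r ranged from -0.405, for Col4a2 with Itga6, to 0.829.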

How the data were processed

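Nuclei of 6 organoid samples, 3 in QCM and 3 in SCM, were sequenced with a droplet 3′ kit. The authors aligned reads with Cell Ranger (2.1.1 per the submitters' processing notes) to mm10 with Ensembl 98, removed outlying nuclei and deposited raw UMI counts per gene and nucleus. Their Leiden clusters (15, numbered 0 to 14) were used as deposited. The deposited mitochondrial fraction was used to describe the samples only. Whether intronic reads were counted is not given in the sources used here.

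The 9 members, the gene lists and the marker lists were chosen with earlier results of these data known, so counts over them are descriptions. Counts were summed per sample for all nuclei, cluster 7, the other nuclei and each cluster with at least 10 nuclei per sample. They were fitted in R 4.3.3 with edgeR 4.0.16 (quasi-likelihood test, TMM, filterByExpr with a minimum count of 10), with Benjamini-Hochberg adjustment over all genes tested and a threshold of 0.05. The fits were checked on simulated data. DESeq2 1.42.0 was one of the alternatives. An exact permutation test of 3 against 3 cannot go below p = 0.1. Levels are CPM with SD, and counting intervals are exact at 95% and cover counting error only.

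Named beside the members are fixed partner chains, the up to 3 genes of each list with the smallest p over all nuclei, and the 3 genes most like each member among genes with at least 100 UMIs. Col4a5, Col18a1 and Ccn1 were named after their values were seen. Doublets were not called here, and an alternative left out the 6% of nuclei with the most UMIs. Each sample was also left out in turn. Python 3.11.15, pandas 2.3.3, SciPy 1.17.1 and Matplotlib 3.10.9 were used for tables and figures. Promoter sequences are from RefSeq (GRCm38.p6). The pooled matrices deposited beside the sample files were not used. Results for some genes of these rules are not reported here.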

Additional observations from a re-analysis of the deposited data

How the results depend on the processing

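Of 682 alternative values, 29 changed direction, 33 others moved or passed a threshold, and 620 kept their direction and side of the threshold. edgeR called 0 genes in each comparison, and the counts below are of genes called by the alternative; the cause of each change was not tested. DESeq2 called 21 genes over all nuclei with 1 member, 35 in cluster 7, 3 outside it and 39 within single clusters. Without the low-count filter there were 440 in cluster 7 (1.71% of 25688 tested), with Thbs1, Lama3, Lama5, Col4a2 and Fn1 among them, 31 for the interaction and 3135 within clusters. Library size alone gave 1 in cluster 7 and 5 within clusters, and put the median over all genes at 0.14 (log2, all nuclei). Leaving out samples gave 0 to 128 for the interaction (1 without QCM replicate 1, 10 without SCM replicate 1, 2 without SCM replicate 2, 128 without SCM replicate 3) and 0 to 32 within clusters (32 without QCM replicate 2). The interaction had 5 without the 6% deepest nuclei. Chosen after seeing the data, replicates 2 and 3 alone gave 8 and leaving out the shared barcodes 10; without SCM replicate 2, the Fn1 counting ratio in cluster 7 went from 153 to 34.9 and the Col4a2 share from 75.5% to 54.6%. With nuclei weighted equally, members without overlap went from 4 to 1 over all nuclei, 0 to 2 in cluster 7 and 2 to 1 outside it. Thinning took the genes with a higher share of nuclei in cluster 7 in all samples from 5 to 0.

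Same-numbered samples did not deviate together in every pair (r of deviations from the group means 0.30, 0.51 and -0.07 over 19046 genes), so the numbers are not treated as pairs. The median mitochondrial percentage did follow the numbers. It was 1.005, 1.83 and 3.71 in QCM replicates 1 to 3 and 0.803, 2.21 and 3.54 in the SCM replicates. The labels do not say whether same-numbered samples are pairs. The replicate block called 0 genes over all nuclei, 1 in cluster 7 and 269 within clusters. QCM replicate 3 correlated best with SCM replicate 1.

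Log2 ratios that changed direction were these. Without the deepest nuclei Lamb3 was -0.10 over all nuclei and -0.15 outside cluster 7, and for the interaction Col4a2 was 0.36 and Itga6 0.12. With the ribosomal protein share Itga6 was -0.19 over all nuclei, -0.42 in cluster 7 and -0.18 outside, Itga2 was -0.33 in cluster 7 and Lamb3 -0.0386 outside. Outside cluster 7 Lamb3 was -0.00794 without the filter, -0.000713 with the replicate block and -0.0192 with replicates 2 and 3 alone. For the interaction Itga6 was 0.10 with replicates 2 and 3 alone and 0.15 without the shared barcodes, and Col4a2 0.0370 without them. Leaving out 1 sample gave -0.00279 to 0.39 for Lamb3 over all nuclei and -0.0783 to 0.13 outside. In cluster 7 it gave -0.57 to 1.22 for Col4a1, -0.31 to 1.60 for Col4a2, -0.0463 to 0.80 for Itga2 and -0.17 to 0.30 for Itga6. For the interaction it gave -0.59 to 0.0370 for Col4a2, -0.12 to 0.42 for Itga2 and -0.24 to 0.15 for Itga6. Itgb1 over all nuclei was -0.0174 without SCM replicate 2. Clusters 9 to 12 could not be fitted without SCM replicate 2 or 3.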
